A study of Glycine max with 30 samples.

Results

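The islands of histone H3 trimethylated at lysine 27 (H3K27me3) called in soybean embryos at early maturation were compared with those called at mid-maturation. An island is a run of enriched windows that the SICER caller joined into a single region. All islands of both lists were taken, 14155 from early and 15672 from mid-maturation, which makes 29827 of the 87531 H3K27me3 islands in the lists of the 5 stages at a false discovery rate (FDR) of 0.05. An early island was called kept if at least 1 bp of it overlapped a mid-maturation island and lost if not, and a mid-maturation island was likewise called kept or gained. These words describe membership in the lists alone.

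The series profiled H3K27me3, H3K4me3 and total H3 by chromatin immunoprecipitation and sequencing (ChIP-seq) in 30 samples, and 8 of them bear on this comparison: 2 biological replicates each of H3K27me3 and of the H3 control at each of the 2 stages. All plants were Glycine max cultivar Williams 82, grown in a greenhouse. Early embryos were taken from seeds of 6 to 7 mm, and mid-maturation was set by a seed weight of 200 to 250 mg, so the labels define the stages by different measures. Of the other stages used below, cotyledon stage embryos came from seeds of 2.5 to 3.5 mm and seedlings were 8 days old. Late maturation was set by a seed weight of 230 to 500 mg, a range that overlaps that of mid-maturation. Early and mid-maturation embryos were crosslinked for 10 minutes in 1% formaldehyde, and the antibody amount was 10 µg for H3K27me3 and 3 µg for H3. Whole embryos were used, so fewer cells carrying the mark at a place and less of the mark in each cell cannot be told apart.

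H3K27me3 is laid down by Polycomb group methyltransferases, of which CURLY LEAF and SWINGER are the best known in Arabidopsis, and it covers whole genes that are kept silent. It can be removed by demethylases or diluted when chromatin is copied at cell division. Early maturation is the time when a legume embryo turns from cell division to the storage of protein and oil, and mid-maturation lies within the storage period. H3K4me3, in contrast, sits at the start of expressed genes.

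Each list pools both replicates, so there is 1 list per stage, no spread between replicates and no test of any difference between the stages. Intervals given with shares are 95% Wilson intervals. They cover counting error only, and neighbouring islands are not independent. No label of the mid-maturation samples names a file, and their list was matched by the stage code it shares with the sample titles. Both lists stayed within an FDR of 0.05 and lay on all 20 chromosomes. Depth differed. The ChIP reads within islands numbered 6837194 at early and 9978699 at mid-maturation, and the control reads in the same islands 5613508 and 3887154. This corresponds to 76.0 and 119 ChIP reads per kb and to 62.4 and 46.3 control reads per kb. The constant that turns the ratio of ChIP to control reads into the deposited fold was 3.05 at early and 1.48 at mid-maturation. No source used here states what that constant stands for. The part of depth in islands lost and gained was not tested.

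Most islands were found at both stages. Of the early islands 12933 were kept (91.4%, interval 90.9 to 91.8) and 1222 were lost, which is 8.63% of the list (8.18 to 9.11). Of the mid-maturation islands 13859 were kept (88.4%, 87.9 to 88.9) and 1813 were gained, which is 11.6% of the longer list (11.1 to 12.1). When the mid-maturation list was limited to its 14155 islands with the lowest p-values, the length of the early list, 1918 early islands were lost and 1130 mid-maturation islands gained. Removing islands from that list alone can only raise the first number and lower the second, so this gives no cause for the excess of gained islands. With an overlap of at least 50% of the island's own length, the numbers were close to each other, 2089 lost and 2120 gained.

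**Figure D1:**
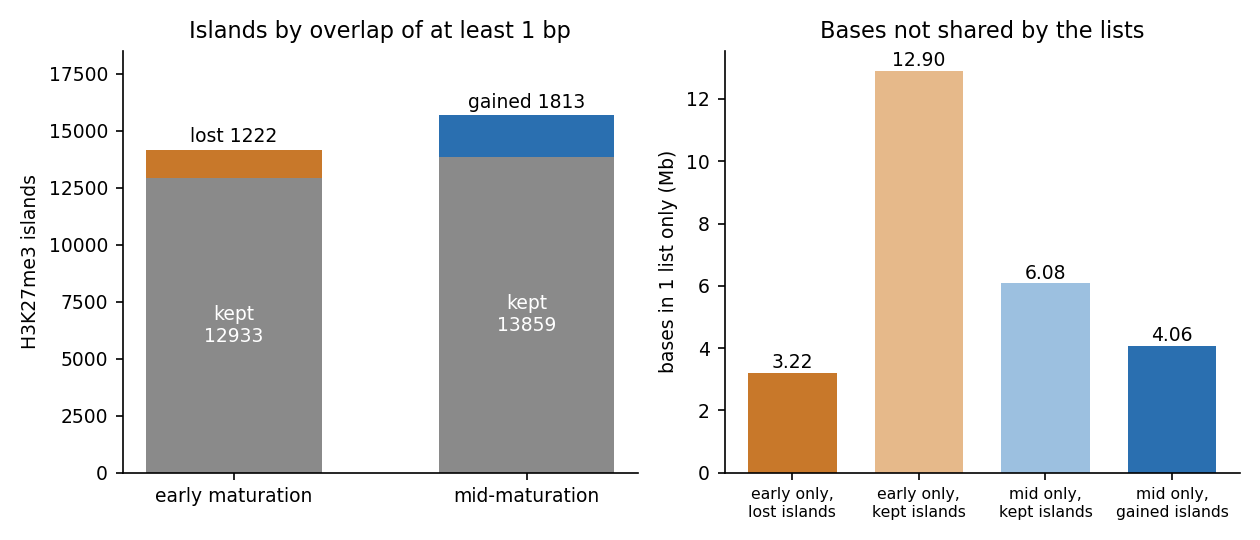
Left, number of H3K27me3 islands in the early and mid-maturation lists, divided into islands overlapping the other list by at least 1 bp (kept) and those that do not. Right, bases (Mb) covered in only 1 of the lists, by whether the island holding them was kept. Most of the early-only bases, 12.9 Mb, lie in kept islands, which hold 86.7 of the 89.9 Mb of the early list.

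Few islands lay near the limit of the definition. Only 4 of the kept early islands and 8 of the kept mid-maturation islands rested on an overlap of a single 200 bp window, and 20 of the lost and 38 of the gained islands lay within 600 bp of an island of the other stage. The median distance from a lost island to the nearest mid-maturation island was 10400 bp (quartiles 3800 and 29000), and from a gained island to the nearest early island 11800 bp (3600 and 35400). No island of the other stage lay within 5 kb of 832 lost and 1264 gained islands.

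Counted in bases, most of what only 1 list covered lay in kept islands. Kept islands held nearly all bases of either list, 86.7 Mb at early and 79.9 Mb at mid-maturation. A large share in kept islands therefore shows no concentration of change there. The early list covered 89.9 Mb and the mid-maturation list 84.0 Mb, of which 73.8 Mb were shared, 82.1% of the early and 87.9% of the mid-maturation bases. Lost islands held 3.22 Mb of the early bases, whereas 12.9 Mb, or 80.0% of all bases found at early maturation alone, belonged to islands that were kept. Gained islands held 4.06 Mb, and 6.08 Mb (59.96% of the bases found at mid-maturation alone) belonged to kept islands. More islands at mid-maturation thus covered less of the genome.

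Lost and gained islands were narrow. Their median width was 2600 bp for the lost (quartiles 1400 and 3600) and 2000 bp for the gained (1400 and 2800), against 5000 bp for kept early and 4400 bp for kept mid-maturation islands. Among early islands of up to 1 kb, 39.4% were lost (35.4 to 43.6). The share was 21.0% for widths over 1 to 2 kb, 13.0% over 2 to 4 kb, 3.87% over 4 to 8 kb and 0.156% over 8 to 16 kb. The gained share at mid-maturation was 28.8% up to 1 kb (25.8 to 31.9), 28.1% over 1 to 2 kb, 15.3% over 2 to 4 kb, 2.25% over 4 to 8 kb and 0.295% over 8 to 16 kb. Of the islands wider than 16 kb, 827 at early and 567 at mid-maturation, every one overlapped the other list.

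Enrichment was compared as the ratio of ChIP to control reads in an island divided by the median of that ratio in its list, called the relative ratio here. A relative ratio of 1 is the typical island of its stage. The list medians themselves were 1.00 ChIP read per control read at early and 2.09 at mid-maturation, which the constants above bring to deposited folds of 3.06 and 3.09. Since the caller selects islands by enrichment, weak islands are more easily absent from a list, and the values by class are a description.

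The median relative ratio was 1.03 in kept early islands (quartiles 0.795 and 1.35) and 0.724 in lost islands (0.610 and 0.921). At mid-maturation it was 1.06 in kept (0.785 and 1.42) and 0.653 in gained islands (0.540 and 0.808). Islands above the list median made up 19.4% of the lost (237) and 9.43% of the gained (171). Control reads per kb differed little between the classes, with medians of 62.7 in lost and 61.8 in kept early islands and of 49.0 in gained and 45.5 in kept mid-maturation islands. ChIP reads per kb differed more, 44.5 in lost against 62.8 in kept early islands and 65.0 in gained against 101 in kept mid-maturation islands. Narrow islands were not weak at both stages. All early islands of up to 1 kb had a median relative ratio of 1.43 and 100 control reads per kb, against 0.819 and 61.9 over 2 to 4 kb. At mid-maturation the values were 0.768 and 61.7 up to 1 kb, against 0.843 and 45.9 over 2 to 4 kb. When each list was divided by the relative ratio into 5 groups of nearly equal size, 21.8% of the weakest and 2.93% of the strongest early islands were lost, and 32.5% of the weakest and 0.989% of the strongest mid-maturation islands were gained.

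**Figure D2:**
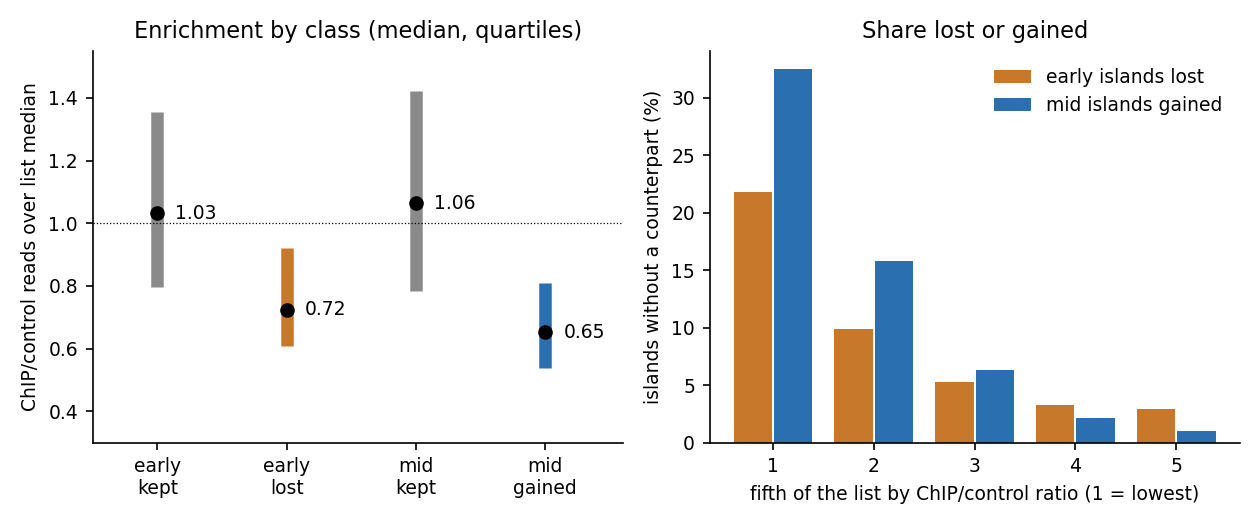
Left, ratio of ChIP to control reads divided by the median of the list, for kept and lost early islands and kept and gained mid-maturation islands; points are medians over islands and bars run from the lower to the upper quartile. Right, percent of early islands lost and of mid-maturation islands gained in 5 groups of nearly equal size ordered by that ratio; the share goes from 21.8% to 2.93% for lost and from 32.5% to 0.989% for gained islands.

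The lost islands with the highest relative ratios were all short. Islands with at least 20 control reads were considered. The first lay on chromosome 20 from 6485801 to 6486400, 600 bp wide, with 123 ChIP reads (exact 95% Poisson interval 102 to 147) and 32 control reads (21.9 to 45.2), a relative ratio of 3.83. It was followed by islands of 600 bp on chromosome 9 from 43192001 (3.70), of 800 bp on chromosome 20 from 36040401 (3.40), of 600 bp on chromosome 14 from 4161401 (3.04) and of 400 bp on chromosome 17 from 36702601 (2.99). All 5 places held an H3K27me3 island at the cotyledon stage, at late maturation and in seedlings, as did 83.2% of all early islands. Mid-maturation was thus the only stage whose list lacked these 5. Those on chromosomes 9 and 14 overlapped an H3K4me3 peak at both early and mid-maturation. Over all early islands the shares were 37.7% and 46.0%.

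The widest lost islands were weaker. An island of 10600 bp on chromosome 19, from 49807601 to 49818200, had 325 ChIP and 578 control reads, a relative ratio of 0.561. On chromosome 12 an island of 8800 bp, from 37286801 to 37295600, reached a relative ratio of 1.14 with 606 ChIP and 528 control reads. The other 3, on chromosomes 8, 7 and 9, had widths of 8800, 8200 and 8000 bp and relative ratios of 0.721, 0.739 and 0.534. All 5 overlapped an H3K4me3 peak at early and at mid-maturation. Of the kept early islands over 8 to 16 kb, 52.2% did so at early and 66.1% at mid-maturation. For kept islands over 4 to 8 kb, the range of the island of 8000 bp, the shares were 38.4% and 48.1%. All 5 places held H3K27me3 islands at the cotyledon stage, at late maturation and in seedlings, as did 83.2% of all early islands.

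Among gained islands the highest relative ratio was 2.37, on chromosome 3 from 13428001 to 13429000, with 104 ChIP reads (85.0 to 126) and 21 control reads (13.0 to 32.1). This island of 1000 bp lay 643200 bp from the nearest early island and was also called at the cotyledon stage, but neither at late maturation nor in seedlings. A gained island of 2600 bp on chromosome 4, from 15039601 to 15042200, had far more reads, 422 ChIP (383 to 464) and 96 control (77.8 to 117), and a relative ratio of 2.10. It was called at each of the other 3 stages and overlapped H3K4me3 peaks at early and mid-maturation. Ratios of 1.93, 1.86 and 1.76 followed on chromosomes 8, 4 and 17, in islands of 1400, 3000 and 1600 bp without an H3K4me3 peak. The widest gained islands, 11800 bp on chromosome 6 from 45005201 and 11000 bp on chromosome 16 from 35086401, had relative ratios of 0.568 and 0.378, the latter with 735 ChIP and 931 control reads.

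Kept islands were linked into groups through their overlaps. The 12549 groups comprised 11101 of a single early and a single mid-maturation island (88.5%), 1072 in which 1 early island was split into several (8.54%), 279 in which several early islands were joined into 1 (2.22%) and 97 with several of each (0.773%). Splits were therefore more frequent than joins. Counted as islands, 1181 early islands overlapped 2 or more mid-maturation islands (8.34% of the list), and 377 mid-maturation islands overlapped 2 or more early islands (2.41%). Most splits gave 2 pieces (969 of 1072). The gaps between pieces were short, with a median of 1000 bp (quartiles 800 and 1400), and 71.5% of them were at most 1200 bp. For joined islands the median gap at early maturation was 800 bp, and 83.1% of the gaps were at most 1200 bp. The caller had bridged gaps of up to 600 bp. When islands of a list within 1200 bp were joined first, 725 early islands overlapped 2 or more of the other list and 197 mid-maturation islands did so, against the 1181 and 377 above. Within 3000 bp the numbers were 431 and 167.

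The relative ratio differed little between the stages in these groups. In split groups its median was 1.14 at early and 1.20 at mid-maturation, while the median width went from 11400 bp in a single island to 9200 bp summed over its pieces. In joined groups the median was 1.03 and 1.13, with 9400 and 10600 bp. The early island divided into the most pieces lay on chromosome 5 from 2754201 to 2780400. Its 26200 bp gave 5 mid-maturation islands of 22200 bp in all, with a relative ratio of 1.00 at early and 0.967 at mid-maturation. A domain of 64000 bp on chromosome 6, from 9043001 to 9107000, was left as 4 islands of 60000 bp in all, at 1.60 and 1.68. The reverse was found on chromosome 9 from 45247401 to 45264800, where 1 mid-maturation island of 17400 bp joined 4 early islands of 12400 bp in all, at 0.570 and 0.528.

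Of the 11101 islands kept as a single island, 6295 were narrower at mid-maturation (56.7%), 3676 wider (33.1%) and 1130 of equal width. Only 656 had identical borders. The median width was 4600 bp at early and 4400 bp at mid-maturation, and the median difference was 1 window of 200 bp less (quartiles 1200 bp less and 400 bp more). On the log2 scale the median of mid-maturation over early width was -0.08. Large changes were mostly narrowings: 1792 islands were narrower by at least 1.5-fold and 660 wider by at least 1.5-fold. Both borders lay further in for 2610 islands and further out for 1160.

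The largest loss of width was on chromosome 5, where an island of 11800 bp, from 1535601 to 1547400, was reduced to 1200 bp with a relative ratio of 0.600 at early and 0.653 at mid-maturation. On chromosome 2 an island of 9400 bp, from 40412601 to 40422000, was left with 600 bp. Narrowings of 8000, 7800 and 7800 bp followed on chromosomes 9, 3 and 9. The largest gains of width were 7200 bp on chromosome 16 (an early island of 4400 bp from 34927001), 7000 bp on chromosome 14 and 6800 bp on chromosome 19. The next 2, of 6400 bp each, again lay on chromosome 16, in early islands starting at 32461001 and 32484801. In these 10 islands the relative ratio differed between the stages by less than 1.5-fold.

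The relative ratio of a kept island was similar at both stages for most. The median of the log2 change over the 11101 links was 0.05 (quartiles -0.14 and 0.24), and the counting error of a single change had a median of 0.18 on the same scale. A relative ratio at least 1.5-fold higher at mid-maturation was found for 381 links, 3.43% of all, and one at least 1.5-fold lower for 558, or 5.03%. Each ratio was taken within the borders of its own stage, so the stages were not measured over the same bases. Links narrower at mid-maturation had a median log2 change of 0.11 and wider ones of -0.05. It was 0.15 in links narrowed by more than 2-fold and -0.40 in those widened by more than 2-fold. The part of width in these changes was not tested. The lower group had a median width of 1400 bp at both stages. The higher group had median widths of 4000 bp at early and 2400 bp at mid-maturation. Its ChIP density went from 48.6 to 112 reads per kb, against 62.6 to 101 over all links, and its control density from 64.5 to 41.8, against 62.1 to 45.8. The largest was on chromosome 16, where an early island of 2400 bp, from 30952401 to 30954800, with 100 ChIP and 167 control reads met a mid-maturation island of 1200 bp with 173 and 47 reads. Its relative ratio was 0.597 and 1.76, a 2.95-fold difference.

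The largest decreases were mostly in short islands. Decreases were graded, with 304 links lower by at least 2-fold, and their median width was 600 bp at both stages. In 140 links (1.26%) the relative ratio was at least 4-fold lower at mid-maturation, whereas the largest increase was the 2.95-fold one above. Of these 140, 108 had an early island of up to 1000 bp, against 318 of all 11101 links, and 76 had identical borders at both stages. Their read densities were high. The medians per kb were 332 ChIP and 123 control reads at early maturation and 187 ChIP and 165 control reads at mid-maturation. The largest decrease was on chromosome 8 from 42457001 to 42457600, with 230 ChIP and 25 control reads at early and 82 and 58 at mid-maturation in the same 600 bp, a relative ratio of 9.17 against 0.676. Others were an island of 600 bp on chromosome 2 from 40037801 (6.69 and 0.755) and one on chromosome 3 from 34750801 (5.68 and 0.648).

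All of these 140 places were called at the cotyledon stage and in seedlings and 139 (99.3%) at late maturation. Over all links the shares were 99.7%, 90.9% and 94.4%, so the difference was largest in seedlings. The median relative ratio there was 2.67 at early and 0.558 at mid-maturation. In the other lists it was 1.93 (cotyledon), 0.800 (late maturation) and 2.44 (seedling), against 1.31, 1.09 and 1.103 over all links. The other mark was also present there at some stages. An H3K4me3 peak overlapped 65 of the 140 at early (46.4%) and 6 at mid-maturation (4.29%), while over all links the share was 37.8% and 46.7%. In the cotyledon, late maturation and seedling lists a peak overlapped 26, 36 and 6 of the 140 (18.6%, 25.7% and 4.29%), against 34.3%, 34.7% and 47.7% of all links. The part of their high control density in the result was not tested. Without links in which either island was at most 1000 bp wide, a limit chosen after seeing the data, 285 links were lower and 339 higher by at least 1.5-fold, so the order of the 2 groups was the opposite. In those 285 the median control density was 61.9 reads per kb at early and 55.0 at mid-maturation, against 61.9 and 45.5 over all links with both islands over 1000 bp. H3K4me3 overlapped 37.9% at early and 33.3% at mid-maturation.

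**Figure D3:**
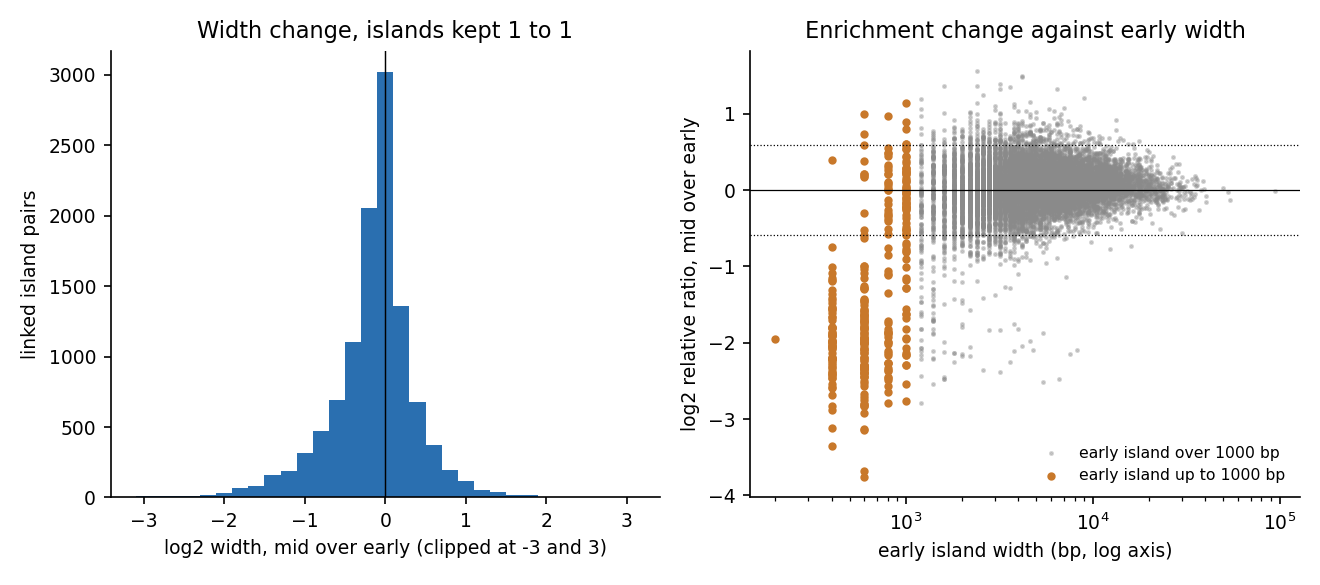
Left, histogram of log2 width at mid-maturation over early maturation for the 11101 islands kept as a single island; the median is -0.08. Right, log2 change of the relative ratio (mid over early) against the early width on a log axis, 1 point per link, with early islands of up to 1000 bp in orange and dotted lines at 1.5-fold; most links lie between the lines, and the points lower by 4-fold or more (-2) are mostly short islands.

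The lost and gained islands were also compared with the lists of the other stages, which took no part in the definition. Those lists differed in size and depth. The cotyledon list was the longest, with 21435 islands over 115 Mb and 23990523 ChIP reads in them. Late maturation had 16871 islands over 99.6 Mb with 8249535 ChIP reads, and seedlings 19398 over 83.1 Mb with 10138013. The part of list size and depth in the overlaps was not tested. Late maturation embryos were crosslinked differently, for 15 minutes on ice, and the part of this in overlaps with their list was not tested. Nearly all early islands (98.7%) and mid-maturation islands (98.6%) overlapped an island of the cotyledon stage. So did 89.2% of the lost (87.3 to 90.8) and 90.3% of the gained islands (88.9 to 91.6). Of the 1813 gained islands 1638 thus lay at a place that was called at the cotyledon stage and not at early maturation. At late maturation 72.3% of the gained islands (70.2 to 74.3) and 51.6% of the lost islands (48.8 to 54.4) overlapped an island, against 92.0% of all mid-maturation and 91.1% of all early islands. In seedlings the shares were 59.0% of the gained (56.7 to 61.3) and 55.2% of the lost (52.4 to 58.0), against 86.9% and 88.4%.

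By combination of stages, the commonest gained islands were called at the cotyledon stage, at late maturation and in seedlings as well, so that early maturation was the only list without them (789, 43.5%). Of all mid-maturation islands 82.0% were called at these 3 stages. A further 407 gained islands (22.4%, against 8.96% of all) were called at the cotyledon stage and late maturation but not in seedlings. The commonest lost islands were likewise called at all 3 other stages (389, 31.8%), against 83.2% of all early islands. They were followed by 296 (24.2%) called at the cotyledon stage but neither at late maturation nor in seedlings, against 3.86% of all. Called at no other stage were 35 lost islands (2.86%, against 0.268% of all early islands). For gained islands the number was 40 (2.21%, against 0.268% of all mid-maturation islands). Where an island of another stage was present, it was weaker at lost and gained places than at kept ones. At the cotyledon stage the median relative ratio was 0.885 at lost and 1.32 at kept early places, and 0.803 at gained and 1.32 at kept mid-maturation places. At late maturation lost places had 0.738 and gained places 0.869, against 1.11 at kept places of either list.

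H3K4me3 was compared in the same islands. Of all early islands 37.7% overlapped an H3K4me3 peak at early and 46.0% at mid-maturation, and the list of these peaks grew from 44752 to 47697. In lost islands the shares were 29.5% (27.1 to 32.2) and 32.4% (29.8 to 35.1). The number with a peak at mid-maturation only was 46 of 1222 (3.76%), against 10.1% of all early islands, and 11 had one at early maturation only, which is 0.900% against 1.73%. In gained islands the shares were 18.8% (17.0 to 20.6) at early and 22.9% (21.0 to 24.9) at mid-maturation, against 32.6% and 40.9% of all mid-maturation islands. Peaks at mid-maturation only were found in 96 gained islands (5.30%, against 10.0%) and at early maturation only in 21 (1.16%, against 1.65%). An exchange of H3K27me3 for H3K4me3 or the reverse between the stages was thus rare in lost and gained islands.

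Wider islands overlapped peaks more often, and the order of the classes depended on width. At early maturation a peak overlapped 11.5% of the lost islands of up to 1 kb (7.89 to 16.4) and 32.8% of the kept (28.0 to 38.03), and over 1 to 2 kb 24.5% of the lost (19.7 to 30.05) and 26.4% of the kept (23.8 to 29.2). The order with these peaks was the opposite in wider islands. An early maturation peak overlapped 32.7% of the lost islands over 2 to 4 kb (29.0 to 36.7) and 26.5% of the kept (25.1 to 27.9). Over 4 to 8 kb it was 47.3% of the lost (40.1 to 54.5) and 38.4% of the kept (36.9 to 39.8). With mid-maturation peaks the intervals of lost and kept islands overlapped. The shares were 36.5% (32.6 to 40.6) and 33.5% (32.0 to 35.1) over 2 to 4 kb. Over 4 to 8 kb they were 52.2% (45.0 to 59.3) and 48.1% (46.7 to 49.6). Gained islands of up to 1 kb overlapped a mid-maturation peak more often than kept ones, 33.6% (28.0 to 39.7) against 24.2% (20.9 to 27.7). With early maturation peaks the same islands did not differ in this way, 30.3% (24.9 to 36.4) against 33.1% (29.5 to 37.0). Over 1 to 2 kb the shares with mid-maturation peaks were 19.3% of the gained (16.6 to 22.4) and 30.04% of the kept (28.0 to 32.2). At mid-maturation a peak also overlapped 22.3% of the gained islands over 2 to 4 kb (19.4 to 25.4) and 32.0% of the kept (30.6 to 33.5), and over 4 to 8 kb 27.7% (19.9 to 37.1) and 46.1% (44.6 to 47.6). By bases, H3K4me3 peaks of early maturation covered 11.3% of the lost and 5.32% of the kept early islands, and those of mid-maturation covered 6.64% of the gained and 7.16% of the kept mid-maturation islands.

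**Figure D4:**
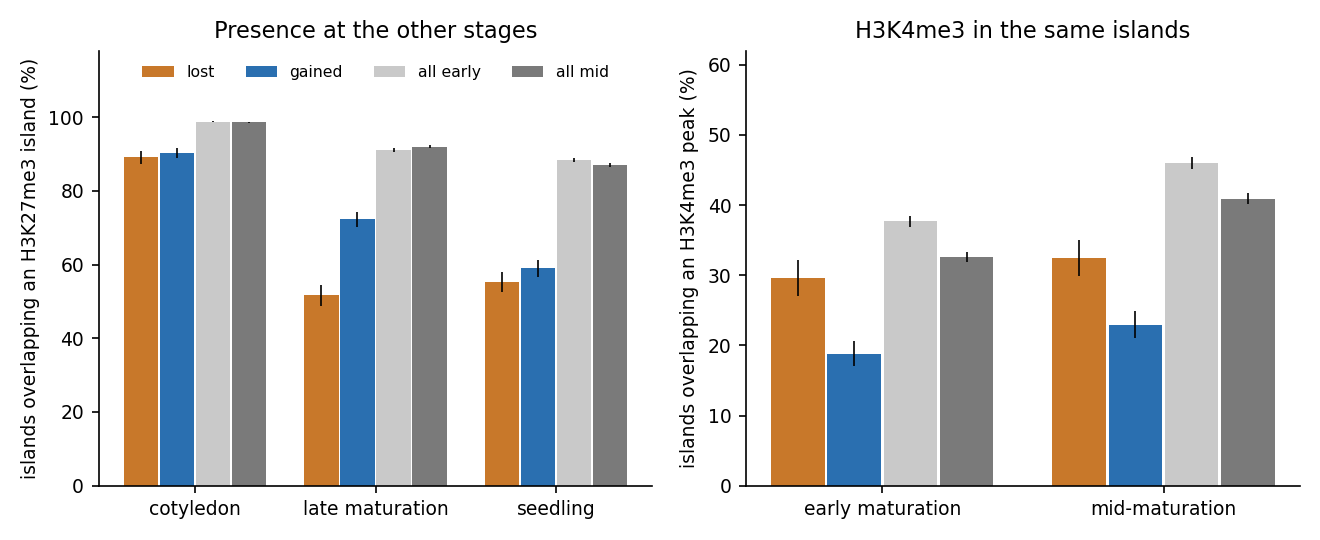
Left, percent of lost, gained, all early and all mid-maturation H3K27me3 islands that overlap an H3K27me3 island at 3 other stages. Right, percent of the same islands overlapping an H3K4me3 peak at early or mid-maturation; error bars are 95% Wilson intervals. Lost and gained islands lie below all islands of their list throughout, and gained islands have the lowest H3K4me3 shares.

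Along the chromosomes, gained islands took a larger share in the middle at the main setting, while the lost share differed little there. Position was expressed relative to the last base covered in any list, with 20% of the chromosome at either end called ends and the part from 30% to 70% called middle. The gained share was 10.0% at the ends (9.44 to 10.6) and 16.0% in the middle (14.6 to 17.5), and the lost share 8.50% (7.95 to 9.08) and 9.15% (8.04 to 10.4). Mid-maturation islands were weaker in the middle, with a median relative ratio of 0.893 against 1.03 at the ends, and early islands were not (0.997 and 1.00). The gained share was higher in the middle for widths over 1 to 2 kb (37.8% against 24.7%) and over 2 to 4 kb (21.6% against 13.1%), and lower up to 1 kb (22.6% against 29.9%). The lost share over 2 to 4 kb was lower in the middle (8.53% against 14.2%). The pattern depended on the threshold. With a deposited fold of at least 3 in both lists, the gained share was 20.02% at the ends and 20.5% in the middle, and the lost share 13.8% and 27.5%. The lost share at the ends and in the middle was 9.08% and 11.5% at an FDR of 1e-05. It was 12.5% and 17.1% with equal list lengths, and 8.92% and 8.01% with widths of at least 1000 bp.

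**Figure D5:**
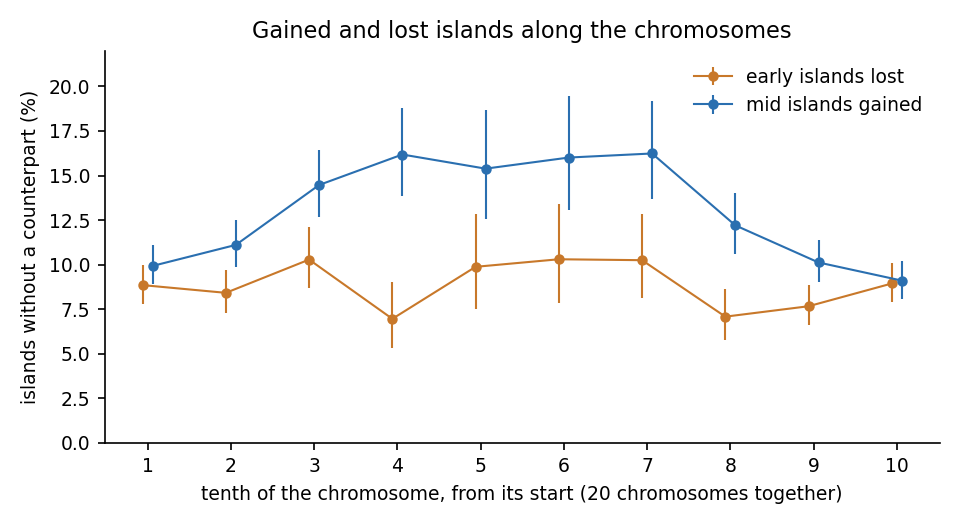
Percent of early islands lost and of mid-maturation islands gained in 10 parts of equal length of each chromosome, all 20 chromosomes together, with 95% Wilson intervals. The gained share is 9.93% and 9.10% in the outermost parts and 15.4% to 16.2% in the 4 central ones, while the lost share stays between 6.96% and 10.3%.

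The shares of gained and lost islands varied between chromosomes. The gained share ran from 8.82% on chromosome 2 (7.13 to 10.9) to 15.4% on chromosome 18 (13.2 to 17.9), and the lost share from 6.74% on chromosome 16 (5.01 to 9.02) to 11.7% on chromosome 17 (9.48 to 14.3). Chromosome 16 had 113 more islands at mid-maturation than at early maturation, the largest difference, and chromosome 17 had 31 more, the smallest. Gained islands without a kept island between them were counted as runs. There were 1305 runs of 1 island, 182 of 2 and 35 of 3. Gained islands made up 11.6% of the list, and the run lengths this share alone would give were not computed. The longest runs were of 6 and 5 islands, both on chromosome 16. The run of 6 lay from 35054001 to 35113400, held 16000 bp of islands with relative ratios from 0.378 to 1.15, and all 6 places were called at the cotyledon stage. The run of 5 lay from 32636401 to 32699000 with relative ratios from 0.581 to 1.42, and all 5 places were called at the cotyledon stage and at late maturation. These runs lie within the same few megabases as 3 of the 5 largest gains of width. Lost islands had no run longer than 4.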

How the data were processed

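H3K27me3 islands were called by the authors in 200 bp windows with gaps of up to 600 bp, per the names of the deposited lists, and the submitters' processing notes name Bowtie 0.12.7, SAMtools 0.1.19, MACS2 and SICER 1.1. The genome build is not given in the sources used here. Each deposited island has ChIP and control read counts, a p-value, an FDR (a corrected p-value) and a fold, which was the ratio of ChIP to control counts multiplied by 1 constant per list. The H3K4me3 lists deposited by the authors give a position and a score per peak. The score was not used.

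The late maturation and seedling lists were limited to an FDR of 0.05. Overlaps, links, widths and ratios were computed with Python 3.11.15, pandas 2.3.3, NumPy 2.4.6 and SciPy 1.17.1, and the overlap code was tested on simulated intervals. Links are connected groups of islands overlapping by at least 1 bp. No read totals per library were used, and no test across samples was possible with 1 pooled list per stage. Read counts may include PCR copies, so intervals cover counting error only.

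Named islands followed a rule: the highest relative ratios (at least 20 control reads) and widths among gained and lost islands, the largest changes among islands kept 1 to 1, and the islands split or joined most. Members, rules and lists were chosen with earlier results of these data known. Genes at the islands were not analysed here.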

Additional observations from a re-analysis of the deposited data

How the results depend on the processing

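No paired analysis was possible because both replicates of a stage went into a single list, and leaving out a replicate was not run for that reason. The cause of the differences below was not tested, except that stricter limits leave fewer islands by construction. With 50% of the island overlapped, 2089 early islands were lost. With a reciprocal overlap of 50%, 3129 were lost and 4646 gained. Equal list lengths gave 1918 lost and 1130 gained. A fold of at least 3 left 6092 early and 6501 mid-maturation islands kept, 473 split early islands, 103 joining mid-maturation islands, 5435 links of 1 to 1, and 1711 wider and 3218 narrower islands. Joining islands within 1200 bp gave 725 split and 197 joining islands, and within 3000 bp 431 and 167. A change of at least 1.5-fold in width was met by 660 wider and 1792 narrower islands, and the median log2 width change over all linked groups was -0.0931.

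Median relative ratios in kept (both lists), gained and lost islands were 1.05, 0.653 and 0.724. With summed reads as reference they were 0.857, 0.532 and 0.596, and with the 1 to 1 links as reference 1.01, 0.622 and 0.709. With an FDR of 1e-05 they were 0.665 in gained and 0.752 in lost islands. The median log2 change in links was 0.0341, 0.0112 and 0.0382 under these settings in turn. Links lower by 1.5-fold numbered 285 without islands of up to 1000 bp.

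With 50% of the island overlapped, gained islands were found at the cotyledon stage, late maturation and in seedlings in 86.3%, 68.6% and 52.3%, and lost islands in 82.7%, 41.8% and 43.8%. With an FDR of 1e-05 asked of the lost islands alone, 90.9% of lost islands were found at the cotyledon stage. H3K4me3 covering 50% of the island was found at early and mid-maturation in 5.74% and 5.96% of gained, 7.61% and 8.76% of lost, 1.85% and 1.86% of kept early and 3.30% and 3.67% of kept mid-maturation islands.

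By position, alternatives added after seeing the data gave these lost shares at the ends and in the middle: 9.08% and 11.5% at an FDR of 1e-05, 13.8% and 27.5% at the fold limit of 3, and 12.5% and 17.1% with equal lengths. With a width of at least 1000 bp the middle had 8.01%. Gained shares were 20.02% and 20.5% at the fold limit and 7.15% and 11.2% with equal lengths. The alternatives not named here left their results within 1.5-fold for counts and within the interval for other values. No median log2 change had the opposite sign under any alternative run. The lists hold islands with as few as 13 control reads at early and 10 at mid-maturation, where counting error is large, and the effect of depth on the calls was not tested.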

Other observations

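Broad islands of at least 20000 bp numbered 481 at early maturation, covering 12.8 Mb, and 281 at mid-maturation, covering 7.32 Mb. None of them was without a counterpart at the other stage. Of the 481 early broad islands 241 overlapped 2 or more mid-maturation islands, and of the 281 at mid-maturation 50 overlapped 2 or more early islands. Over the whole lists the shares were 8.34% and 2.41%. A wider island has more room to overlap several others, so these counts depend on the width limit. The widest island had 94200 bp at early and 92400 bp at mid-maturation.

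In windows of 5 Mb with at least 20 islands, the gained share had a median of 12.2% and reached 42.3% (interval 25.5 to 61.1) on chromosome 16 from 20000001 to 25000000, with 11 of 26 islands, and 38.5% (24.9 to 54.1) on chromosome 13 from 10000001 to 15000000, with 15 of 39. The lost share had a median of 8.11% and reached 22.2% (10.6 to 40.8) on chromosome 17 from 20000001 to 25000000, with 6 of 27. These windows were picked as the highest of 163 and 154.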
